A study of Mus musculus with 4 samples.

Results

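The p53 target genes described here are 33 genes. They are Trp53, the gene of the transcription factor p53, and genes listed as its targets or as holding p53 in check. They were chosen by gene symbol, with earlier results of these data known. Their counts beside the shares of all genes are therefore descriptive, not an independent test of the list. All 33 were found among the 55382 genes of the deposited tables, with 1 Ensembl gene each. They were read by role: 6 genes of cell cycle arrest, 14 of cell death, 5 of DNA repair, and 8 of metabolism and of the feedback on p53. The hearts were taken on day 15 after birth. One group was a conditional knockout of Nat10 (CKO in the design text, KO in the titles), and the controls were NAT10-FF mice (FF in the library names, WT in the titles). NAT10 adds acetyl groups to cytidines of RNA, including ribosomal RNA, and is needed to build small ribosomal subunits. Each group has 2 ribosome profiling libraries, made from about 100 mg of heart with cycloheximide at 100 µg/mL and RNase I. The sources used here give neither the Cre driver, nor the exons removed, nor the number of animals per library. The p-values therefore measure the spread between libraries, which may be technical.

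In unstressed cells p53 is kept scarce by Mdm2, which marks it for degradation, while Mdm4 holds back its activity. DNA damage, activated oncogenes or faulty ribosome assembly release p53, which binds response elements in DNA and raises the transcription of its targets. The targets stop the cell cycle, open the mitochondrial and death receptor routes to apoptosis, repair DNA, restrain growth signalling, and, through Mdm2, Ppm1d and Ccng1, bring p53 down again. In heart muscle, p53 activity is known from ischaemic injury, pressure overload and anthracycline toxicity.

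Footprint levels are the authors' FPKM, a fragment count scaled to the length of the gene and the total of the library. Translation efficiency (TE) is the authors' ratio of footprints to RNA. The implied RNA level is FPKM divided by TE, and is likewise in FPKM. Between 16425 and 16900 genes had footprints above 0 per library, and the read depth is unknown. Nat10 had 40.01 and 52.1 FPKM of footprints in KO libraries, against 77.3 and 73.9 in WT libraries. Its log2 difference of -0.71 (SE 0.30) missed the threshold (limma, adjusted p = 0.295). All 8 cardiomyocyte markers were highly translated, but the libraries also held markers of other cells, so that the labelled cell type, cardiomyocytes, describes only part of the tissue. The summed footprints of the 8 cardiomyocyte markers were 162146 to 168989 FPKM in KO libraries, against 246931 to 293393 in WT libraries. The sum of the 8 fibroblast markers was 52319 to 67695 FPKM in KO libraries, against 19685 to 24549 in WT libraries. For each of the 8, both KO libraries lay above both WT libraries, where 39.5% of all tested genes did so. The 8 macrophage markers summed to 864 to 1853 FPKM in KO libraries, against 543 to 859 in WT libraries. The 8 endothelial markers summed to 2272 to 3519 FPKM in KO libraries, against 1701 to 1894 in WT libraries. None of these 32 markers was at 0. Among 8 lymphocyte and erythroid markers, which summed to 672 to 1257 FPKM in KO libraries against 856 to 1043 in WT libraries, Cd3e, Cd3g and Cd79a were among those listed at 0 in at least 1 library. By limma, 0 of these markers passed the test for footprints; at an unadjusted p under 0.05, 8 fibroblast, 3 endothelial and 1 macrophage markers were higher in KO (13.5% of all tested genes), and 2 cardiomyocyte markers lower (3.80%). The part of these other cells in the results below was not tested. In whole tissue, fewer cells of a type and less RNA per cell cannot be told apart.

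RefSeq promoter windows (GRCm38.p6, 250 bases before to 50 after an annotated start) were at hand for 25 of the 33 genes. They were searched on both strands for the decamer of the p53 response element, 10 bases long and its own reverse complement as a pattern. A decamer with no mismatch stood in 12 of the 25 genes (48.0%), against 2582 of 27025 genes with a window (9.55%). A pair of decamers with up to 3 mismatches in all and up to 13 bases between them stood in 11 of the 25 (44.0%), against 4701 of 27025 (17.4%). In these pairs no mismatch was allowed at the fixed C and the fixed G of a decamer. A match describes letters only, and known response elements outside these windows were not looked at. The 250 bases before the first annotated start of Cdkn1a are shown because this gene had the largest footprint change of the 33. The capitals mark a pair of adjoining decamers with 1 mismatch in all, at chr17:29090928-29090947, plus strand, beginning 51 bases before that start. The window held 2 exact decamers, the first decamer in capitals and an unmarked one before it, ggactagctt. These 2 make a pair without a mismatch, with fewer than 13 bases between them. In choosing the pair shown for a gene, a gap between the decamers counted as 1 mismatch. Cdkn1a has a second annotated start, whose preceding 250 bases are chr17:29093519-29093768. The window of that second start held neither an exact decamer nor a pair.
Cdkn1a: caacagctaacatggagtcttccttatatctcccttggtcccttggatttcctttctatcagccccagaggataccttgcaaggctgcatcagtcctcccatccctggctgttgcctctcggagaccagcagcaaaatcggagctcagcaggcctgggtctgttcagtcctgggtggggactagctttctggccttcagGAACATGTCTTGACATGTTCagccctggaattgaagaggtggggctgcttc
Shorter stretches are shown for 6 other genes with an exact decamer whose implied RNA level passed the test. Aen and Polk also met this and are not shown. In these, capitals mark the pair of decamers or, where no second one lay near, the single decamer, with 10 bases on each side. The capitals lie at chr11:40755462-40755481, minus strand for Ccng1, at chr7:45467079-45467099, minus strand for Bax, at chr3:137623582-137623603, plus strand for Ddit4l, at chr11:69580284-69580303, plus strand for Trp53, at chr10:117710935-117710944, minus strand for Mdm2, and at chr10:41887266-41887285, plus strand for Sesn1.
Ccng1: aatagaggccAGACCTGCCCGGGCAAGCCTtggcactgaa
Bax: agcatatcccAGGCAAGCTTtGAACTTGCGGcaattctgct
Ddit4l: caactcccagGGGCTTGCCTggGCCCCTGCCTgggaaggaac
Trp53: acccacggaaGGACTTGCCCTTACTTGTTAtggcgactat
Mdm2: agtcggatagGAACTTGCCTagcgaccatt
Sesn1: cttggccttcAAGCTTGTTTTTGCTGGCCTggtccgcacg
The pairs of Ccng1 and Bax had 1 and 2 mismatches, and those of Ddit4l, Trp53 and Sesn1 had 3 each. The stretch of Sesn1 belongs to a later annotated start of that gene. Its first annotated start has chr10:41810324-41810573 as the preceding 250 bases, and that window held neither an exact decamer nor a pair. Of the 12 genes with an exact decamer, the implied RNA level of 8 rose in KO and that of 1, Sesn1, fell, where 4.20% of all tested genes rose and 1.53% fell. Of the 13 with a window and no exact decamer, 12 had an RNA level in every library, and 5 of them rose. The median log2 RNA difference was 1.27 with an exact decamer and 0.99 without. For footprints the order was the other way, with medians of 1.19 with an exact decamer and 2.09 without. No test was made of these differences, and Eda2r, Phlda3 and Plk2 are among the genes that rose without an exact decamer in the window.

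Footprint levels of most p53 targets were higher in KO than in WT libraries, but few passed the test across all genes. Cdkn1a and Eda2r rose (limma, adjusted p = 0.0218 for each), and none fell. Of all 15031 genes tested, 38 rose (0.253%) and 19 fell (0.126%). Both KO libraries lay above both WT libraries for 27 of the 33 targets, where 39.5% of all tested genes did so. For 1 target, Gadd45a, both lay below (12.1% of all tested genes), and for Ei24, Rrm2b, Xpc, Ddb2 and Sesn1 the groups overlapped. At an unadjusted p under 0.05, 22 of 33 were higher (13.5% of all tested genes) and 0 lower (3.80%). The median log2 difference was 1.74 over the 33 targets, against 0.36 over all tested genes. By role it was 2.14 for arrest, 2.01 for death, 0.85 for metabolism and feedback, and -0.18 for repair. After the libraries were scaled to each other, the median of all genes was 0.03, and 26 of the 33 targets lay above 0. The footprint calls depended on the genes tested alongside. Without small RNA genes, unnamed gene models and pseudogenes, 11 of the 33 rose, against 177 of 12857 genes (1.38%), and 0 fell, against 55 (0.428%). Without any one of the 4 libraries, no gene was called: the adjusted p of Cdkn1a was 0.299 without KO replicate 1, 0.443 without KO replicate 2, 0.447 without WT replicate 1 and 0.666 without WT replicate 2, and its log2 difference was 3.79 to 4.98.

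**Figure D1:**
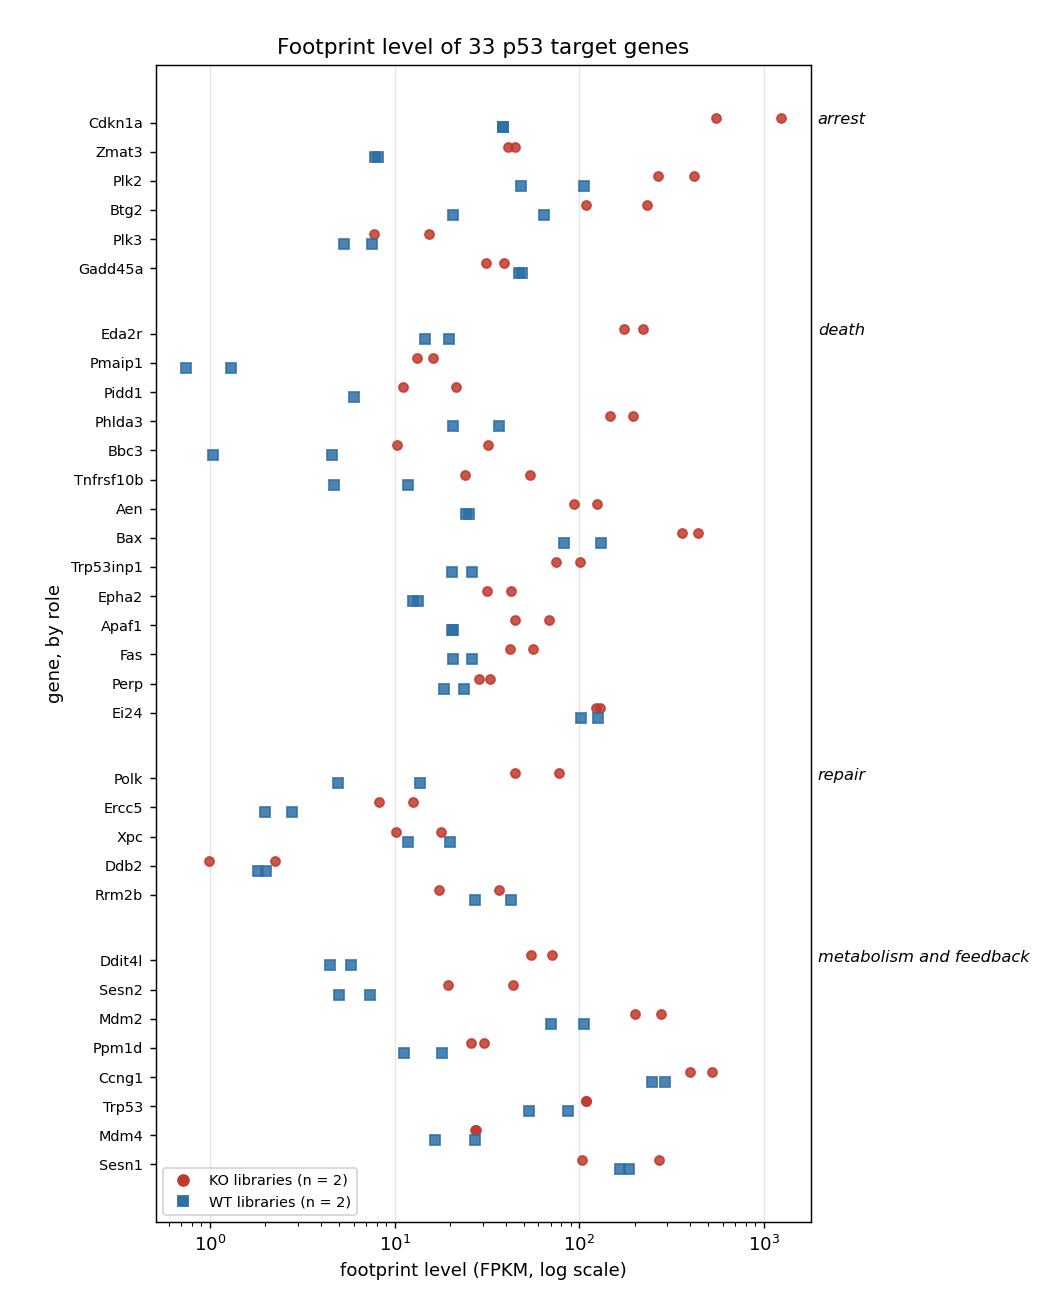
Footprint level in FPKM (log axis) of the 33 p53 target genes, by role, with 1 point per library (circles KO, squares WT, 2 each); Pidd1 has 1 WT point because its other WT library is listed at 0. Cdkn1a stands at 548 and 1245 FPKM in KO libraries against 38.5 and 38.7 FPKM in WT libraries, while Sesn1 and 3 of the 5 repair genes overlap.

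The implied RNA levels gave more calls than the footprints. Of 32 targets tested, 16 rose and 1 fell in KO, where 526 of 12529 genes rose (4.20%) and 192 fell (1.53%). The 16 were Cdkn1a, Plk2 and Zmat3 of arrest, Eda2r, Aen, Pmaip1, Bbc3, Bax, Tnfrsf10b and Phlda3 of death, Polk of repair, and Trp53, Mdm2, Ccng1, Sesn2 and Ddit4l of metabolism and feedback. Sesn1 fell. Both KO libraries lay above both WT libraries for 23 targets (44.2% of all tested genes) and below them for Gadd45a, Ddb2, Mdm4 and Sesn1 (18.6%). At an unadjusted p under 0.05, 21 were higher (21.1%) and 4 lower (7.17%). The median log2 difference was 1.06 over the 32 targets, against 0.22 over all tested genes. Pidd1 was left out because its TE was listed at 0 in WT replicate 2. Without one library, the count that rose ran between 13 and 20. Tnfrsf10b and Trp53 lost the call without KO replicate 1 (adjusted p = 0.057 and 0.0547). Without WT replicate 1, Plk2 (0.0976), Ccng1 (0.172), Sesn1 (0.0825) and Trp53 (0.335) lost it. Without WT replicate 2, Ccng1 (0.31), Sesn1 (0.158) and Trp53 (0.0572) lost it.

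**Figure D2:**
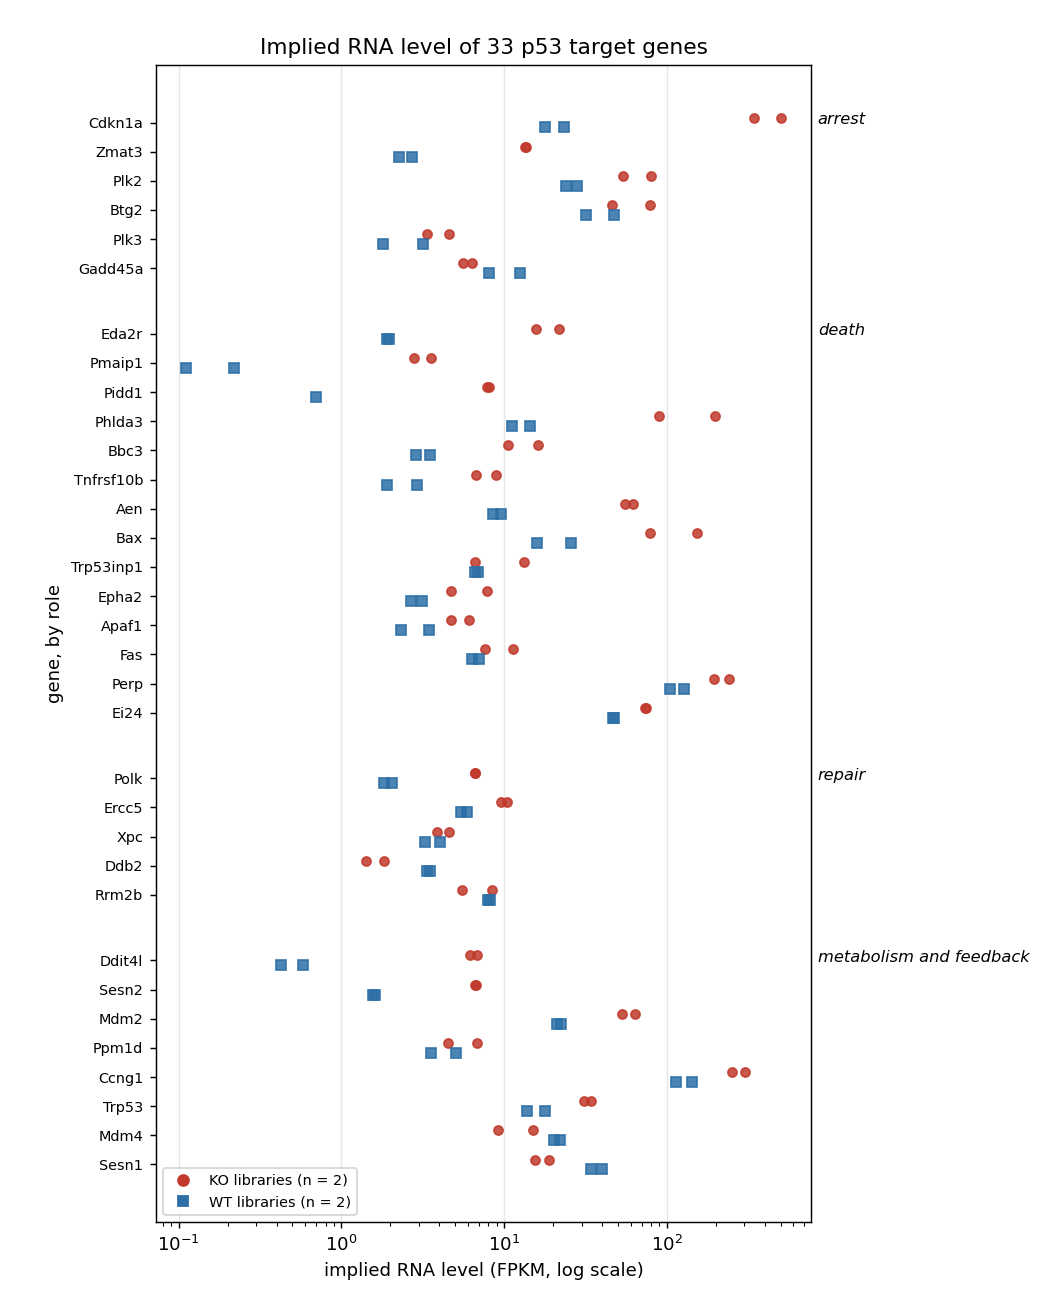
Implied RNA level in FPKM (log axis) of the p53 target genes, by role, with 1 point per library (circles KO, squares WT, 2 each); Pidd1, which was not tested, has 1 WT point. Pmaip1 stands at 3.57 and 2.78 FPKM in KO libraries against 0.220 and 0.111 in WT libraries, and Sesn1 is the gene whose RNA fell.

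Among the arrest genes, Cdkn1a changed most. It encodes p21, which inhibits cyclin-dependent kinases, and lies on chromosome 17 from 29090979 to 29100722 (GRCm38). It had 548 and 1245 FPKM of footprints in KO libraries, against 38.5 and 38.7 FPKM in WT libraries, or 896 ± 493 against 38.6 ± 0.148 FPKM (SD, n = 2 each). The KO libraries differed from each other by more than did those of WT, yet both stood far above WT. The log2 difference was 4.39 (SE 0.41) on the log2(FPKM + 1) scale, or 20.9-fold. Its RNA stood at 506 and 342 FPKM in KO libraries, against 17.9 and 23.5 FPKM in WT libraries, 20.3-fold higher (limma, adjusted p = 0.0124). In KO replicate 1 the RNA was the higher of the pair and the footprints were the lower. Zmat3, an RNA-binding zinc finger protein that alters splicing and stability of its transcripts, had 41.2 and 45.1 FPKM of footprints in KO libraries, against 7.84 and 8.15 FPKM in WT libraries. Its implied RNA rose 5.49-fold, with 13.7 and 13.5 FPKM in KO libraries and 2.28 and 2.70 FPKM in WT libraries (limma, adjusted p = 0.0138). Within each group the libraries of Zmat3 lay close together, in both measures.

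Plk2, a polo-like kinase with roles in centriole duplication, had 269 and 417 FPKM of footprints in KO libraries, against 107 and 48.5 FPKM in WT libraries. Its implied RNA was 80.01 and 54.00 FPKM in KO libraries and 23.9 and 27.96 FPKM in WT libraries, a 2.54-fold rise (limma, adjusted p = 0.0405). The related kinase Plk3 did not pass (footprint log2 difference 0.70, SE 0.55), and it shares 84 bases with its coding neighbour Tctex1d4. Btg2, an antiproliferative regulator of transcription and mRNA decay, had a footprint log2 difference of 2.09 (SE 0.62) but an RNA difference of 0.63 (SE 0.33). It passed neither test. Gadd45a, a stress protein of arrest and repair, had a footprint log2 difference of -0.45 (SE 0.32) and an RNA difference of -0.76 (SE 0.29). It was the arrest gene with both KO libraries below WT in footprints and in RNA (limma, adjusted p = 0.491 and 0.147). Its TE overlapped between the groups.

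The death genes held the second footprint call. Eda2r, which encodes a TNF-receptor-like protein that binds ectodysplasin A2, had 175 and 222 FPKM of footprints in KO libraries, against 19.8 and 14.7 FPKM in WT libraries. The log2 difference was 3.46 (SE 0.32), 10.97-fold. The implied RNA was 15.6 and 21.9 FPKM in KO libraries and 1.97 and 1.90 FPKM in WT libraries, 9.57-fold higher (limma, adjusted p = 0.0138). The groups lay wide apart in both measures. Its footprint adjusted p was 0.299 to 0.666 without any one library. Of the other death receptors, Tnfrsf10b, the TRAIL receptor of the mouse, had 8.98 and 6.72 FPKM of implied RNA in KO libraries, against 2.91 and 1.92 FPKM in WT libraries, a 3.29-fold rise (limma, adjusted p = 0.0392). Its footprints were 23.98 and 54.3 FPKM in KO libraries and 11.9 and 4.67 FPKM in WT libraries (adjusted p = 0.216). Fas passed neither test, with log2 differences of 1.03 for footprints and 0.49 for RNA.

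Of the genes of the mitochondrial route, Pmaip1, Bbc3 and Bax rose in RNA. Pmaip1 and Bbc3 encode Noxa and Puma, BH3-only proteins that neutralise Bcl2 survival proteins, and Bax forms pores in the outer mitochondrial membrane. Pmaip1 had 3.57 and 2.78 FPKM of implied RNA in KO libraries, against 0.220 and 0.111 FPKM in WT libraries, a 20.2-fold rise from low WT levels (limma, adjusted p = 0.0192). Its footprints were 16.2 and 13.2 FPKM in KO libraries and 1.29 and 0.741 FPKM in WT libraries. Bbc3 had 16.1 and 10.6 FPKM of implied RNA in KO libraries, against 2.86 and 3.49 FPKM in WT libraries, 4.14-fold higher (limma, adjusted p = 0.0261). The Bbc3 footprints spread widely within both groups, with 31.9 and 10.3 FPKM in KO libraries and 4.58 and 1.04 FPKM in WT libraries. Bax had the highest mean footprint level of the death genes over the 4 libraries, though in WT libraries Ei24 averaged more. It had 441 and 361 FPKM of footprints in KO libraries, against 131 and 82.3 FPKM in WT libraries (log2 difference 1.93, SE 0.31, adjusted p = 0.0983). Its implied RNA was 154 and 78.96 FPKM in KO libraries and 15.9 and 25.6 FPKM in WT libraries, 5.45-fold higher (limma, adjusted p = 0.0287). Apaf1, the scaffold of the apoptosome, had log2 differences of 1.38 for footprints and 0.92 for RNA and passed neither test. Pidd1, which activates caspase-2 in the PIDDosome, had 21.6 and 11.1 FPKM of footprints in KO libraries, against 6.02 and 0 FPKM in WT libraries, and its 0 can be a failed estimate.

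The remaining death genes act in the nucleus, in survival signalling or at the membrane. Aen, an exonuclease that takes part in DNA fragmentation, had 94.2 and 125 FPKM of footprints in KO libraries, against 25.4 and 24.3 FPKM in WT libraries. Its implied RNA was 61.9 and 55.2 FPKM in KO libraries and 8.60 and 9.61 FPKM in WT libraries, 6.43-fold higher (limma, adjusted p = 0.0138). Phlda3, a pleckstrin-homology protein that holds back Akt, had 148 and 195 FPKM of footprints in KO libraries, against 20.8 and 36.7 FPKM in WT libraries. Phlda3 RNA was 197 and 90.1 FPKM in KO libraries and 11.2 and 14.5 FPKM in WT libraries, 10.5-fold higher (limma, adjusted p = 0.0184). As for Cdkn1a, KO replicate 1 had the higher Phlda3 RNA and the lower footprints of the KO pair. Trp53inp1, a stress protein of apoptosis and autophagy, had a footprint log2 difference of 1.86 (SE 0.34) and an RNA difference of 0.47 (SE 0.35), neither past the test. Epha2, an ephrin receptor kinase, and Perp, a membrane protein of desmosomes, had footprint differences of 1.44 and 0.54 and RNA differences of 1.07 and 0.90. Ei24, a membrane protein of the endoplasmic reticulum, overlapped between groups, with 124 and 130.4 FPKM of footprints in KO libraries and 102 and 127 FPKM in WT libraries.

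Of the 5 repair genes, 1 rose in RNA and none passed the test for footprints. Polk, a DNA polymerase that copies past damaged bases, had 77.4 and 44.7 FPKM of footprints in KO libraries, against 13.8 and 4.93 FPKM in WT libraries (log2 difference 2.68, SE 0.58, adjusted p = 0.155). Its implied RNA was 6.63 and 6.67 FPKM in KO libraries and 2.06 and 1.84 FPKM in WT libraries, 3.41-fold higher (limma, adjusted p = 0.0267). The groups did not overlap in either measure. Ercc5, the endonuclease that cuts beside a lesion in nucleotide excision repair, had 12.6 and 8.25 FPKM of footprints in KO libraries, against 2.77 and 1.99 FPKM in WT libraries, and an RNA log2 difference of 0.81 (adjusted p = 0.0833). Xpc and Ddb2 recognise lesions in the same pathway. Xpc had log2 differences of -0.18 for footprints and 0.22 for RNA, and Ddb2 of -0.20 and -1.09. None of these passed. Ddb2 overlaps the coding gene Acp2 by 2554 bases, and Xpc, Gadd45a, Zmat3, Eda2r, Ei24, Apaf1, Rrm2b and Mdm4 overlap non-coding RNA genes or pseudogenes. The sources used here do not say whether counting used the strand. Rrm2b, the p53-inducible subunit of ribonucleotide reductase, had 17.5 and 36.7 FPKM of footprints in KO libraries and 42.7 and 27.2 FPKM in WT libraries, with the groups overlapping.

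**Figure D3:**
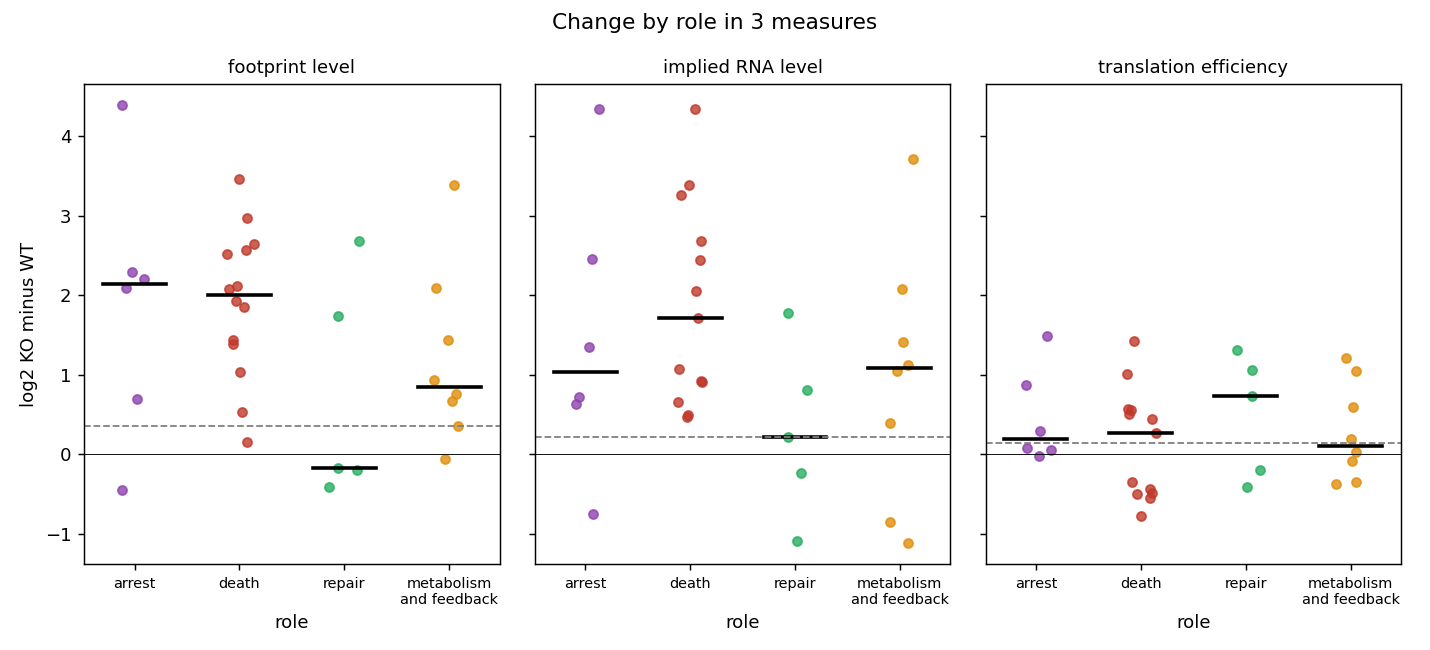
Log2 difference, KO minus WT, in footprint level, implied RNA level and translation efficiency; each point is 1 gene, the bars are medians by role and the dashed line is the median of all tested genes. The footprint medians are 2.14 for arrest, 2.01 for death, 0.85 for metabolism and feedback and -0.18 for repair, against 0.36 for all genes.

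In the feedback on p53, the RNA of Trp53 and Mdm2 rose, and that of Mdm4 did not pass the test. Trp53 had 34.2 and 30.9 FPKM of implied RNA in KO libraries, against 13.9 and 17.7 FPKM in WT libraries (2.07-fold, limma, adjusted p = 0.0485), and its call was lost without KO replicate 1 or without either WT library. Its footprints were 109 and 109 FPKM in KO libraries and 86.8 and 53.2 FPKM in WT libraries (adjusted p = 0.344). Mdm2, the ubiquitin ligase of p53, had 63.5 and 53.1 FPKM of implied RNA in KO libraries, against 22.5 and 21.04 FPKM in WT libraries, a 2.67-fold rise (limma, adjusted p = 0.0267). The Mdm2 footprints were 200.4 and 278 FPKM in KO libraries and 106 and 70.3 FPKM in WT libraries, with no overlap. Mdm4, its relative, had an RNA log2 difference of -0.85 (SE 0.28, adjusted p = 0.118) and a footprint difference of 0.35 (SE 0.41). Relative to all genes, after the libraries were scaled to each other, its footprint difference was -0.0076. Ppm1d, the phosphatase Wip1 that reverses damage signalling, had log2 differences of 0.94 for footprints and 0.39 for RNA and passed neither test. Ccng1, cyclin G1, which recruits a phosphatase to Mdm2, had 396 and 527 FPKM of footprints in KO libraries, against 249 and 291 FPKM in WT libraries, the most of this role. Ccng1 RNA was 251 and 304 FPKM in KO libraries and 142 and 114 FPKM in WT libraries, 2.17-fold higher (limma, adjusted p = 0.0465), a call lost without either WT library.

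Of the growth regulators, Ddit4l and Sesn2 rose in RNA and Sesn1 fell. Ddit4l, which restrains mTORC1 and is also called Redd2, had 54.98 and 71.2 FPKM of footprints in KO libraries, against 4.47 and 5.78 FPKM in WT libraries. Its footprint difference was 10.4-fold and missed the threshold narrowly (limma, adjusted p = 0.0509). The implied RNA rose 13.1-fold, with 6.14 and 6.85 FPKM in KO libraries and 0.579 and 0.426 FPKM in WT libraries (adjusted p = 0.0138). The sestrins Sesn1 and Sesn2 both restrain mTORC1 when amino acids are scarce. Sesn2 had 6.65 and 6.77 FPKM of implied RNA in KO libraries, against 1.60 and 1.57 FPKM in WT libraries, a 4.23-fold rise (limma, adjusted p = 0.0218), and 19.5 and 44.1 FPKM of footprints in KO libraries against 5.01 and 7.40 FPKM in WT libraries. Sesn1 had 15.6 and 18.8 FPKM of implied RNA in KO libraries, against 34.1 and 40.01 FPKM in WT libraries, and fell by 1.11 on the log2 scale (limma, adjusted p = 0.0442). That call was lost without either WT library. The Sesn1 footprints were 103 and 271 FPKM in KO libraries and 185 and 166 FPKM in WT libraries, so that 1 KO library lay below and 1 above both WT libraries.

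**Figure D4:**
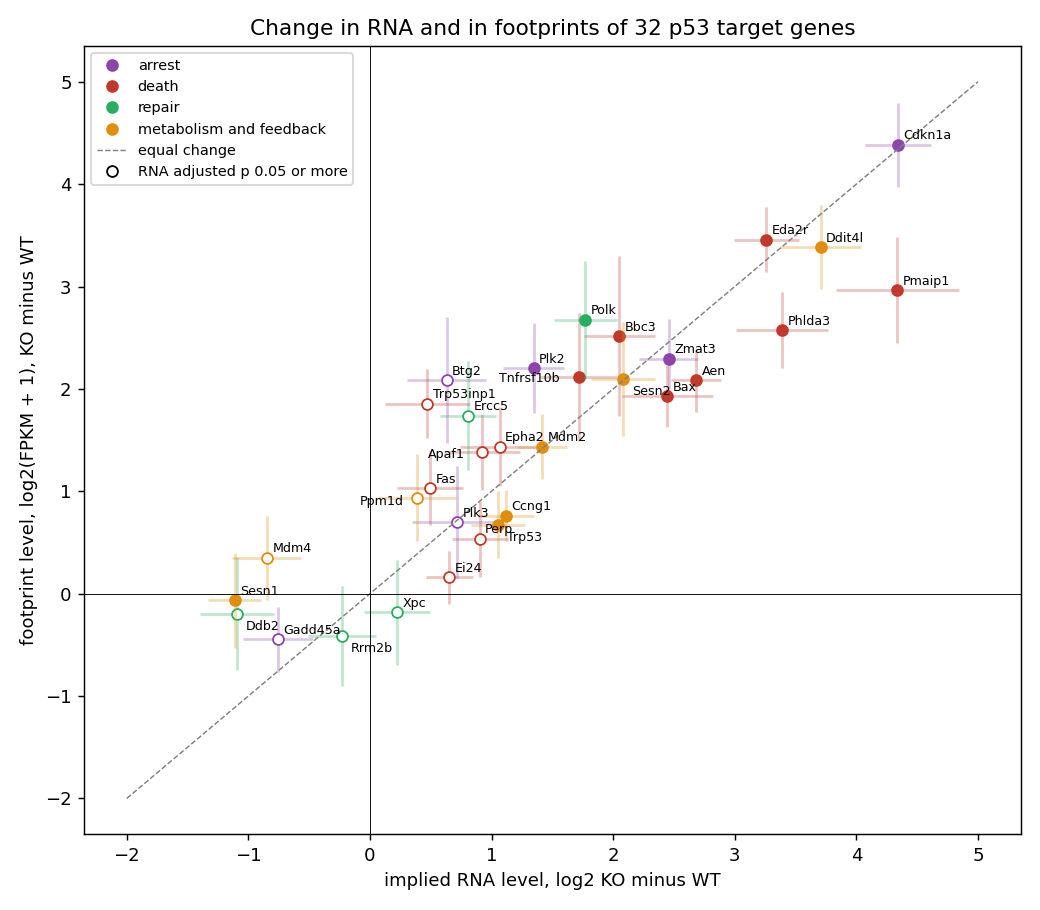
Log2 difference, KO minus WT, of the implied RNA level (x axis) and of the footprint level (y axis, log2(FPKM + 1)) for the 32 p53 target genes with both; bars are standard errors, filled points passed the RNA test and the dashed line marks equal change. Cdkn1a lies at 4.34 and 4.39, and Sesn1, the filled point left of 0, at -1.11 and -0.06.

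TE asks whether footprints changed beyond RNA. With limma, none of the 32 targets passed the test for TE, and 0 of all 12529 tested genes did (0.00%). At an unadjusted p under 0.05, 1 target, Trp53inp1, was higher (4.68% of all tested genes) and 0 were lower (1.38%). Trp53inp1 had a TE of 11.2 and 7.62 in KO libraries, against 3.84 and 3.08 in WT libraries (log2 difference 1.43, SE 0.46, adjusted p = 0.805). For 8 targets both KO libraries lay above both WT libraries (24.0% of all tested genes), and for 5 below them (12.0%). The median log2 TE difference was 0.23 over the 32 targets, against 0.15 over all tested genes. The TE of Cdkn1a was 1.08 and 3.64 in KO libraries and 2.15 and 1.65 in WT libraries, so that the KO libraries enclosed those of WT. TE was higher in KO replicate 2 than in KO replicate 1 for 25 of the 32 targets (78.1%), as for 66.4% of all tested genes. In WT, replicate 1 was the higher for 21 of the 32 (65.6%), as for 67.9% of all tested genes. Perp had the lowest TE of the targets in each library, 0.120 and 0.169 in KO libraries and 0.177 and 0.186 in WT libraries. As a quotient of footprints and RNA, TE shares the errors of both.

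Further genes of the p53 pathway were read from lists apart from the 33. Of 52 other known p53 targets, 49 were tested for footprints, and 1 rose and 0 fell, where 0.253% of all tested genes rose and 0.126% fell. The riser was Gdf15, a secreted stress cytokine, with 129 and 251 FPKM in KO libraries, against 3.23 and 2.90 FPKM in WT libraries (log2 difference 5.48, limma, adjusted p = 0.0141). Psrc1, a spindle protein, had a footprint log2 difference of 2.20 and did not pass the test. In implied RNA, 7 of 47 rose and 0 fell, where 4.20% of all tested genes rose and 1.53% fell. The 7 were Gdf15, Dcxr, Gtse1, Zfp365, Tap1, Slc19a2 and Siva1. The largest after Gdf15 were Dcxr, a dicarbonyl and xylulose reductase (11.8-fold, adjusted p = 0.0184), and Gtse1, a microtubule protein that dampens p53 (9.15-fold, adjusted p = 0.0170). The median log2 difference of these other targets was 0.38 for footprints and 0.34 for RNA, against 0.36 and 0.22 over all tested genes.

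Regulators upstream of p53 did not pass the test, with 0 of 16 tested for footprints and 0 of 14 for RNA by limma. Of all tested genes, 0.253% rose and 0.126% fell in footprints, and 4.20% rose and 1.53% fell in RNA. With shares so low, 0 calls in a list this short say little about the regulators. At an unadjusted p under 0.05, 3 of the 16 were higher in footprints (13.5% of all tested genes) and 2 of the 14 in RNA (21.1%), shares near those of all genes. Npm1, a nucleolar protein that binds Mdm2, had 231 and 261 FPKM of footprints in KO libraries, against 135 and 81.5 FPKM in WT libraries (adjusted p = 0.184). Rpl5, a ribosomal protein that binds Mdm2 when ribosome assembly fails, had 0 and 4.36 FPKM in KO libraries and 3.92 and 2.02 FPKM in WT libraries, and it may share reads with pseudogenes. Rpl11, its partner, was below the filter for footprints. The implied RNA of both was high, so that their low footprints do not mean silent genes. For Rpl5 it was 318 FPKM in KO replicate 2, against 163 and 191 FPKM in WT libraries. For Rpl11 it was 366 FPKM in KO replicate 2, against 168 and 204 FPKM in WT libraries. KO replicate 1 gave no RNA value for either gene, and the reason for the low footprints was not tested. Of 21 cell cycle genes that p21 is known to lower, 13 rose in implied RNA and 0 fell, against 4.20% and 1.53% of all tested genes. Examples were Ccnb2, a mitotic cyclin (5.02-fold, adjusted p = 0.0173), Ube2c, a mitotic ubiquitin enzyme (4.13-fold, adjusted p = 0.0157), and Plk1, a mitotic kinase (4.42-fold, adjusted p = 0.0276). The median RNA log2 difference of the 21 was 1.76, against 0.22 over all tested genes. None of the 21 passed for footprints by limma, where 0.253% of all tested genes rose and 0.126% fell. None did at an unadjusted p under 0.05 either (13.5% of all tested genes higher and 3.80% lower). Their footprints were higher for 18 and lower for 3, with a median log2 difference of 0.88, against 0.36 over all tested genes. In TE, 20 were lower and 1 higher, with a median of -0.77 against 0.15. The TE of the 21 summed to 152 and 101 in KO libraries, against 410 and 115 in WT libraries. By this sum WT replicate 1 stood apart, and WT replicate 2 lay between the KO libraries. None of the 21 passed for TE, and the groups overlapped for 16. Without overlap, TE was lower in KO for 5 of the 21 (12.0% of all tested genes) and higher for 0 (24.0%). The summed footprints of the 21 were 1162 and 992 FPKM in KO libraries, against 1044 and 305 FPKM in WT libraries, with the groups overlapping. The RNA of 2 of 8 fibroblast markers (Tcf21 and Postn) and 2 of 8 macrophage markers (Lyz2 and C1qa) also rose, against 4.20% of all tested genes. None of the 8 cardiomyocyte and 8 endothelial markers passed for RNA. In RNA, 7 fibroblast markers were higher and 1 lower, and all 8 macrophage markers were higher. All 8 cardiomyocyte markers were lower, and the endothelial markers were divided, 4 higher and 4 lower. The part of these cells in the values above was not tested.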

How the data were processed

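Values of 2 KO and 2 WT heart ribosome profiling libraries were read from a table of FPKM and a table of translation efficiency, a ratio, both deposited by the authors. The submitters' processing notes name the aligners STAR 2.7.4a and Bowtie 1.3.1, Cufflinks 2.2.1 and HTSeq 0.13.5, the read tools FastQC 0.11.9 and cutadapt 3.7, and the build GRCm38 (mm10). Their settings, strand included, and the making of the RNA libraries are not stated in these sources. FPKM divided by TE had no more than 6 significant digits for 59296 of 59296 values (to a relative tolerance of 1e-10), and the quotient was taken as the RNA level behind the TE. A TE of 0 was taken as missing. FPKM keeps no read total, so depth is unknown and whole reads were not recovered.

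A gene was tested where 2 or more of the 4 libraries reached 1 FPKM (15031 genes, and 12529 with TE above 0 throughout). limma 3.58.1 in R 4.3.3 (lmFit, eBayes with trend, two-sided, no covariates) was fitted to log2(FPKM + 1), log2 of the quotient and log2(TE). P-values were adjusted by Benjamini-Hochberg over all tested genes and called at 0.05. Fold changes on the log2(FPKM + 1) scale understate low genes. An exact permutation test of 2 against 2 cannot go below p = 0.333 and was not used.

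Values in every library are given for targets past the threshold in a measure and, per role, for the 3 with the largest footprint change and the 2 most translated; others are given by difference. Of the other lists, genes past the threshold and up to 3 with the largest change were eligible. The members and lists were chosen with earlier results of these data known. Some genes of the other lists are not reported here. Alternatives were scaling, pseudocount, filters, no small RNA genes, no trend, a replicate block and leaving out each library. Replicate numbers are shared between groups, but nothing in the labels pairs them, and the deviations of same-numbered libraries correlated at -0.056 (footprints), -0.219 (RNA) and -0.0178 (TE) across genes.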

Additional observations from a re-analysis of the deposited data

How the results depend on the processing

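With 2 libraries per group, depth unknown, and 1 library left to stand for its group (assumed to vary like the other) when one is dropped, single calls are fragile. No alternative called a target for TE, and none gave a target a called change of the opposite sign. For footprints, the targets that rose, 2 as reported, numbered 1 with pseudocount 0.1, 0 without a filter, 8 with FPKM of at least 5 in a whole group, 11 without small RNA genes, unnamed models and pseudogenes, 0 without the mean-variance trend, 5 with the replicate block, and 0 to 0 without one library each. The counts of all genes that rose and fell were 23 and 11 with pseudocount 0.1, 7 and 1 without a filter, 133 and 34 with the stricter filter, 177 and 55 without small RNA genes, 23 and 13 without the trend, 118 and 25 with the replicate block, 40 and 30 after median-ratio scaling, and 0 to 0 without one library. Among the other p53 targets, 0 rose without a filter, and 0 to 0 without one library.

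For RNA, 327 genes rose and 309 fell after scaling, against 526 and 192 as deposited, and 13 targets rose and 1 fell. Without the trend, 7 targets rose and 0 fell (all genes 50 and 17; other p53 targets 2). With the replicate block, 15 targets rose (all genes 1028 and 401; other p53 targets 11). With replicate numbers crossed, an alternative added after seeing the data, 21 targets rose and 4 fell (all genes 2412 and 829; other p53 targets 18). Without one library, 13 to 20 targets rose and 0 to 3 fell (all genes 482 to 2632 and 222 to 1110; other p53 targets 8 to 15). For TE, the replicate block called 126 genes higher and 52 lower, the stricter filter, the set without small RNA genes and the fit without trend called 1 gene lower each, and leaving out a library called 0 to 23 higher and 0 to 10 lower. The numbers do not pair the libraries by any label, so the block was not preferred. The causes of these changes were not tested.

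Uncalled differences changed sign as follows (log2, KO minus WT). Scaling gave -0.21 for Ei24 and -0.0076 for Mdm4 in footprints, and -0.069 for Cdkn1a, -0.11 for Mdm2 and -0.087 for Plk3 in TE. Pseudocount 0.1 gave TE differences of 0.13 for Ddit4l, 0.12 for Pmaip1 and 0.0053 for Zmat3. Without one library, footprint differences ran from -0.55 to 0.16 for Ddb2, -0.92 to 0.10 for Rrm2b, -0.76 to 0.63 for Sesn1 and -0.56 to 0.20 for Xpc. RNA differences ran from -0.54 to 0.078 for Rrm2b and -0.025 to 0.97 for Trp53inp1. TE differences ran from -1.19 to 0.17 for Bax, -0.21 to 2.22 for Bbc3, -0.80 to 0.95 for Cdkn1a, -0.49 to 0.32 for Ddit4l, -0.15 to 1.03 for Epha2, -0.33 to 0.39 for Mdm2, -0.65 to 0.77 for Plk3, -0.00087 to 1.20 for Ppm1d, -0.54 to 0.15 for Rrm2b, -0.39 to 0.76 for Sesn2, -0.24 to 1.36 for Tnfrsf10b, -0.90 to 0.16 for Trp53, -0.95 to 0.12 for Xpc and -0.12 to 0.069 for Zmat3.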
